A study of Homo sapiens with 4 samples.

Results

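The miR-99/100 and miR-125 families were followed in human cortical interneurons as 10 mature miRNAs, picked by name from a table of 2656. They are the 5 guide strands hsa-miR-99a-5p, hsa-miR-99b-5p, hsa-miR-100-5p, hsa-miR-125a-5p and hsa-miR-125b-5p, and the 5 passenger strands hsa-miR-99a-3p, hsa-miR-99b-3p, hsa-miR-125a-3p, hsa-miR-125b-1-3p and hsa-miR-125b-2-3p. The rule used names and no measured value, and all 10 were among the 863 miRNAs with enough counts to be tested. The other strand of miR-100, hsa-miR-100-3p, was not a member and fell below the filter on low counts.

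The cells were differentiated from H1, a human embryonic stem cell line, and are labelled as neural cells or cortical interneurons, the inhibitory nerve cells of the cortex. The exposed group was grown with ethanol at about 50 to 100 mM for 7 days, the unexposed group without it for the same time, and per the study's methods the exposed cells then had a further day without ethanol. Small RNA libraries were made from 2 cultures of each group, and the question was whether exposure changed miRNA levels. Nothing in the sources used here says that the duplicates came from separate differentiations, so each P measures only the spread between these samples, and all values come from 1 cell line.

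A miRNA is cut as a hairpin into a duplex, of which the guide strand is kept by an Argonaute protein and the passenger strand is mostly lost. The guide finds its targets chiefly through its seed, bases 2 to 8 from the 5′ end. Members of the miR-99/100 family lie next to a let-7 and a miR-125 gene in loci that have kept this order in many animals. miR-125 is the vertebrate relative of lin-4, the founding miRNA, and let-7 and miR-125 are known for rising as neural cells mature, whereas miR-99/100 miRNAs are known regulators of the growth kinase mTOR. The let-7 part of these primary transcripts is held back by LIN28 in stem cells, and the neighbours on the same transcript need not follow it.

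The mature sequences show what the members share and where they can be confused. They are given from RefSeq (GRCh38.p14), 5′ to 3′, with the seed in capitals, and 10 of the 10 members were matched by name. The guides come first:
hsa-miR-99a-5p: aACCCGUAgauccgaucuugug
hsa-miR-100-5p: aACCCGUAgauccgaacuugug
hsa-miR-99b-5p: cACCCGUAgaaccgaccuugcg
hsa-miR-125a-5p: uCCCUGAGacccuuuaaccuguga
hsa-miR-125b-5p: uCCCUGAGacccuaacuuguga
The passengers, cut from the opposite arm of the same hairpins, are:
hsa-miR-99a-3p: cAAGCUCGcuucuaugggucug
hsa-miR-99b-3p: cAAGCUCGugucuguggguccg
hsa-miR-125a-3p: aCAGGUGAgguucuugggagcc
hsa-miR-125b-1-3p: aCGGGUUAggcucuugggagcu
hsa-miR-125b-2-3p: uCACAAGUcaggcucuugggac

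The 3 miR-99/100 guides had 1 seed in common, ACCCGUA, and among the RefSeq human mature miRNAs no others held it. The miR-125 guides had the seed CCCUGAG, which was also found in hsa-miR-4319, a miRNA with 0 counts in all 4 libraries. Counted from 1 at the 5′ end, hsa-miR-99a-5p and hsa-miR-100-5p differed by U16A alone, with 21 of 22 bases identical. hsa-miR-99a-5p and hsa-miR-99b-5p differed by A1C, U11A, U16C and U21C. hsa-miR-125a-5p (24 bases) and hsa-miR-125b-5p (22 bases) had their first 13 bases in common. The passengers were less alike. hsa-miR-99a-3p and hsa-miR-99b-3p had the seed AAGCUCG in common and differed by C9U, U10G, A14G and U21C, and each of the 3 miR-125 passengers had a seed of its own. How the counting assigned reads that match both hsa-miR-99a-5p and hsa-miR-100-5p, for instance reads that end before base 16, is not given in the sources used here, so the split between these is less certain than their sum.

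The members come from 3 loci, placed here by gene name on GRCh38 with GENCODE 29, since the counts carry no coordinates. On chromosome 21, plus strand, MIR99A (chr21:16539089-16539169), MIRLET7C (chr21:16539828-16539911) and MIR125B2 (chr21:16590237-16590325) lie in introns of the long noncoding RNA gene MIR99AHG, over a span of 51237 bases. On chromosome 11, minus strand, MIR100 (chr11:122152229-122152308), MIRLET7A2 (chr11:122146522-122146593) and MIR125B1 (chr11:122099757-122099844) lie in introns of the noncoding MIR100HG, over 52552 bases. The locus on chromosome 19, plus strand, is far shorter. MIR99B (chr19:51692612-51692681), MIRLET7E (chr19:51692786-51692864) and MIR125A (chr19:51693254-51693339) lie within 728 bases, in an intron of the protein-coding gene SPACA6 and opposite an exon of the antisense RNA SPACA6P-AS. hsa-miR-125b-5p is made from 2 of these loci and its count cannot be divided between them, whereas its passengers differ and can be. hsa-let-7a-5p likewise has 3 precursors, of which 1 lies here.

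The table summed to 22223060 and 24858230 counts for exposed replicates 1 and 2, and to 13941795 and 12100425 counts for unexposed replicates 1 and 2. Both exposed libraries were the deeper ones, so the effects of depth and of exposure cannot be told apart. Levels are given as TMM-scaled CPM, the counts in every 1000000 counts of a library, where each library's total is adjusted by a factor that aligns most miRNAs between libraries. Across the 863 tested miRNAs the log2 CPM of replicates differed with an SD of 0.461 in exposed and 0.691 in unexposed cells. The neural label was checked with marker miRNAs. The 8 neuronal markers summed to between 225800 and 302200 CPM, the 8 pluripotency markers to between 2.42 and 3.89 CPM with 3 of them at 0 in all libraries, and the 3 glial markers to between 75.7 and 115.6 CPM. The neuronal sum was mostly hsa-miR-9-5p, at between 157352 and 254022 CPM. hsa-miR-124-3p, a miRNA largely restricted to neurons, was at 5406 and 3362 CPM in exposed and at 2948 and 2190 CPM in unexposed cells, with a log2 fold change of 0.77 (SE 0.30, adjusted p = 0.922 in edgeR's quasi-likelihood test). Unlike the members it was past an unadjusted P of 0.05. Both exposed libraries were higher, as for hsa-miR-125a-3p and hsa-miR-125b-1-3p among the members. Its log2 fold change was 0.39 without exposed replicate 1. The other neuronal markers went both ways. Their log2 fold changes were -0.26 for hsa-miR-218-5p, -0.23 for hsa-miR-9-5p, -0.03 for hsa-miR-129-5p and 0.09 for hsa-miR-9-3p. For hsa-miR-137-3p, hsa-miR-138-5p and hsa-miR-128-3p they were 0.17, 0.26 and 0.31. As a sum the neuronal markers were highest in unexposed replicate 1 and lowest in unexposed replicate 2. The part of hsa-miR-124-3p in the values below was not tested. The 5 mesenchymal markers summed to between 80.2 and 110.6 CPM, the 2 endothelial ones to between 807 and 1021 CPM, and the 3 leukocyte ones to at most 0.0777 CPM with 2 of 3 at 0. The neuronal markers do not mark interneurons in particular. Their sum rests mostly on hsa-miR-9-5p, and no markers of neural progenitors were checked. In such bulk libraries fewer cells of a type and less RNA per cell cannot be told apart.

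The 5 guides were among the abundant miRNAs of these cells. Together they took 15.3% and 11.5% of the counts in exposed replicates 1 and 2, and 11.0% and 11.4% in unexposed replicates 1 and 2. The 9 let-7 guides, the family with which they share loci, took 15.2% and 18.3% of the exposed libraries and 19.0% and 16.1% of the unexposed ones. Exposed replicate 1 was the library in which the 5 guides took the most and let-7 the least. The 5 passengers took 0.462%, 0.342%, 0.241% and 0.382% of the counts in the same order. The 95% Wilson intervals of these shares were at most 0.0414 percentage points wide and cover counting error only.

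hsa-miR-99a-5p was the most abundant member, at a mean of 40615 CPM, and ranked between 3 and 7 among all miRNAs of a library. hsa-miR-125b-5p followed at 29075 CPM, lower in all 4 libraries and with a range that did not reach that of hsa-miR-99a-5p. hsa-miR-100-5p (18215 CPM), hsa-miR-99b-5p (17796 CPM) and hsa-miR-125a-5p (16537 CPM) lay close together. Their ranges overlapped, and hsa-miR-100-5p was above hsa-miR-99b-5p in 3 of 4 libraries and hsa-miR-99b-5p above hsa-miR-125a-5p in 2 of 4, so these neighbours did not differ beyond their spread. hsa-miR-125b-5p was above hsa-miR-100-5p in all 4 libraries, but their ranges overlapped too. The passengers began 9.82-fold lower, with hsa-miR-125b-1-3p at 1697 CPM, above hsa-miR-125b-2-3p at 949.9 CPM without overlap. hsa-miR-99b-3p stood at 777 CPM. hsa-miR-125a-3p lay 10.6-fold below it at 73.3 CPM, and hsa-miR-99a-3p a further 33.7-fold lower at 2.21 CPM. The levels are means of the CPM over the 4 libraries and the folds are from their mean log2. Since ligation in small RNA libraries favours some ends over others, a difference between miRNAs is less certain than one between libraries for the same miRNA.

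**Figure D1:**
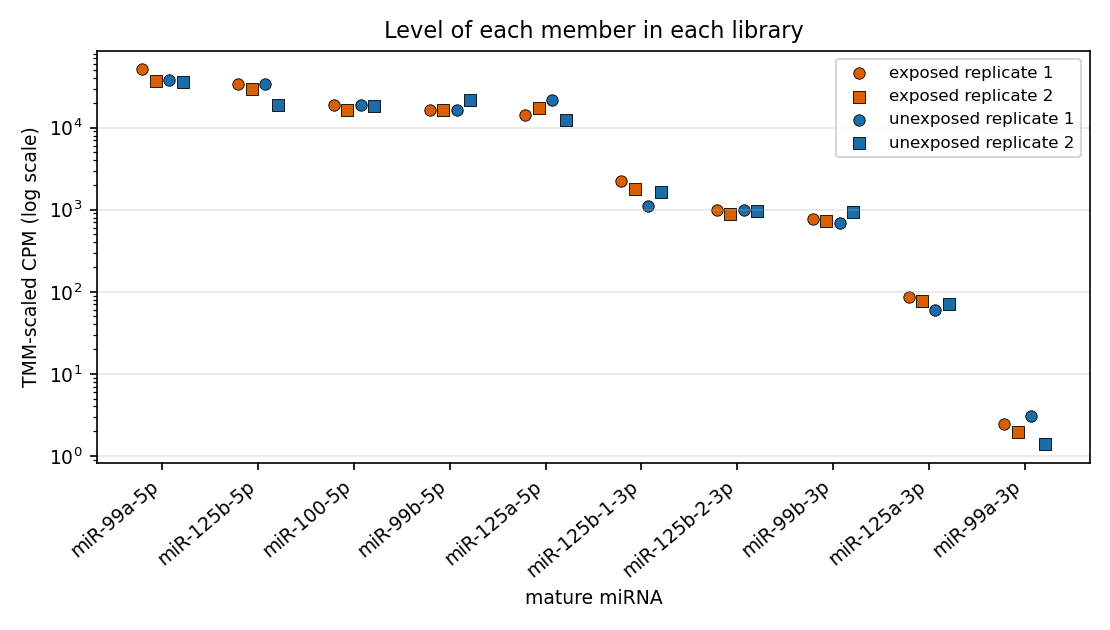
TMM-scaled CPM (log axis) of each of the 10 members in each of the 4 libraries; each point is 1 library, in orange for exposed and blue for unexposed. The 5 guides lie between 12554 and 51241 CPM, 4 passengers between 59.2 and 2237 CPM, and hsa-miR-99a-3p between 1.40 and 3.05 CPM, and the spread between libraries is small beside these steps.

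With ethanol, none of the 10 members passed the test. Of the members 0 had an unadjusted P under 0.05 in edgeR's quasi-likelihood test, against 39 of the 863 tested miRNAs (4.52%). The count was also 0 with limma-voom, which called 31 of all miRNAs, and 0 with DESeq2, which called 28. After Benjamini-Hochberg adjustment over the 863 miRNAs, edgeR called 0 in the whole table, and 0.922 was the lowest adjusted p both for the members and for all miRNAs. The members' median absolute log2 fold change was 0.17 and that of all tested miRNAs 0.25. These medians were not matched for level, and many tested miRNAs had far fewer counts than most members. 4 members had a log2 fold change above 0 and 6 below, from -0.22 to 0.56. This split depended on the scaling: by library size only, hsa-miR-99b-5p alone stayed below 0, at -0.099. In 2 members (20%) no exposed value lay within the range of the unexposed values or the reverse, against 290 of 863 miRNAs (33.6%). With unexposed replicate 1 left out, 1 member passed (hsa-miR-125b-5p), against 99 of 977 miRNAs (10.1%), and with unexposed replicate 2 left out another did (hsa-miR-125b-1-3p), against 109 of 954 (11.4%). The count stayed 0 with either exposed library left out. hsa-miR-125b-1-3p was also the 1 member past it with all miRNAs of at least 1 count kept, against 94 of 1825 (5.15%), and in a crossed replicate block chosen after seeing the data, against 59 of 863 (6.84%). In the fits of 3 libraries the spread is the one shared by all miRNAs, and a miRNA's own spread has no weight. How much weight it had in the fit with all miRNAs of at least 1 count kept was not examined. With 2 libraries a group, a two-sided exact permutation test of a single value cannot give a p under 0.333.

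The intervals say how large a change could have gone unseen. The 95% interval of the log2 fold change lay inside a change of 2-fold either way for 8 of the 10 members. The exceptions were hsa-miR-125b-5p and hsa-miR-125b-1-3p, whose upper bounds were 1.03 and 1.16 on the log2 scale. In 7 of the 10 members the unexposed replicates differed more from each other than the exposed replicates did.

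**Figure D2:**
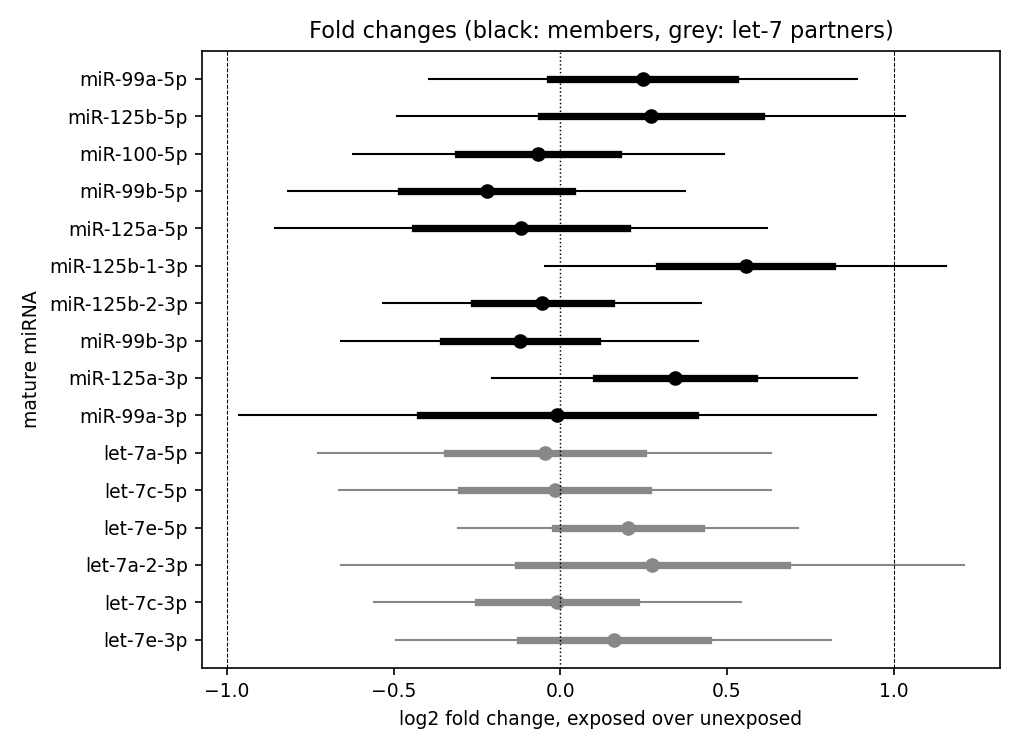
Log2 fold change, exposed over unexposed, of the 10 members (black) and 6 let-7 products of the same loci (grey), from edgeR; points are estimates, thick bars 1 standard error either side and thin bars the 95% interval, with dashed lines at a 2-fold change. Every interval includes 0, and hsa-miR-125b-1-3p (0.56) lies farthest from it.

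Among the miR-99/100 guides, hsa-miR-99a-5p, a product of the chromosome 21 locus, was at 51241 and 36935 CPM with ethanol and at 38454 and 35829 CPM without it. Exposed replicate 1 stood above the other three, which lay close together, and the groups overlapped. The means were 44088 ± 10116 CPM and 37141 ± 1856 CPM (SD, n = 2 each), a log2 fold change of 0.25 (SE 0.28, adjusted p = 0.945 in edgeR's quasi-likelihood test). Without exposed replicate 1 it was -0.01.

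hsa-miR-100-5p, its near twin from chromosome 11, was among the steadiest members, at 19022 and 16572 CPM in exposed and 18962 and 18306 CPM in unexposed cells. Its lowest and highest values were both exposed. The log2 fold change was -0.07 (SE 0.24, 95% interval -0.62 to 0.49). hsa-miR-99b-5p, from chromosome 19, was at 16308 and 16557 CPM in exposed cells and at 16385 and 21933 CPM in unexposed cells. Here 3 libraries were nearly equal and unexposed replicate 2 was high. The log2 fold change was -0.22 (SE 0.26, adjusted p = 0.958 in edgeR's quasi-likelihood test), and it was -0.03 without unexposed replicate 2 and -0.42 without unexposed replicate 1.

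The miR-125 guides varied most in the unexposed cells. hsa-miR-125b-5p was at 33837 and 29768 CPM in exposed and at 34003 and 18694 CPM in unexposed libraries. Unexposed replicate 1 was the highest of all and unexposed replicate 2 the lowest, so the groups overlapped fully. The log2 fold change of 0.27 (SE 0.33, adjusted p = 0.963 in edgeR's quasi-likelihood test) turned on which unexposed library was used: it was 0.76 (adjusted p = 0.146 in edgeR, on the shared spread alone) without unexposed replicate 1 and -0.13 without unexposed replicate 2. hsa-miR-125a-5p was at 14121 and 17607 CPM in exposed and at 21866 and 12554 CPM in unexposed libraries, again with both extremes among the unexposed. Its log2 fold change was -0.12 (SE 0.32, 95% interval -0.85 to 0.62), and 0.33 without unexposed replicate 1. In unexposed replicate 2 both miR-125 guides were at their lowest and hsa-miR-99b-5p at its highest, although hsa-miR-99b-5p and hsa-miR-125a-5p come from the same short locus.

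Of the passengers, hsa-miR-125b-1-3p, made only from chromosome 11, showed the largest difference among the members. It was at 2237 and 1802 CPM in exposed and at 1116 and 1632 CPM in unexposed cells (means 2019 ± 308 and 1374 ± 364, SD, n = 2 each). Both exposed libraries were above both unexposed ones, but the gap from 1632 to 1802 CPM was narrower than the distance between the replicates of either group. The log2 fold change was 0.56 (SE 0.26, 95% interval -0.05 to 1.16), a 1.47-fold difference. It was the only member beyond 1.3-fold, which the study required for its network together with an unadjusted P under 0.05. Its P of 0.0655 was the 50th smallest of 863 and its adjusted p 0.922 in edgeR's quasi-likelihood test. With unexposed replicate 2 left out it came to 0.82 (adjusted p = 0.143 in edgeR, on the shared spread alone), and with unexposed replicate 1 left out to 0.30.

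hsa-miR-125b-2-3p, the passenger of the other miR-125b hairpin, was the most even member by its range, at 979 and 885 CPM in exposed and at 979 and 957 CPM in unexposed cells. Its log2 fold change was -0.05 (SE 0.21). hsa-miR-125a-3p was at 86.6 and 77.4 CPM in exposed and at 59.2 and 70.1 CPM in unexposed cells. As for hsa-miR-125b-1-3p, both exposed libraries were higher, and the log2 fold change was 0.34 (SE 0.24, adjusted p = 0.922 in edgeR's quasi-likelihood test). hsa-miR-99b-3p was at 763 and 726 CPM in exposed and at 689 and 931 CPM in unexposed cells, with unexposed replicate 2 the highest as for its guide, and a log2 fold change of -0.12 (SE 0.23). hsa-miR-99a-3p had only 61 and 48 counts in exposed and 36 and 18 counts in unexposed cells, and its log2 fold change was -0.01 (SE 0.41). These counts were still far above the 3 counts taken as the floor, which corresponds to between 0.121 and 0.248 CPM.

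Ratios of members within a library need no scaling between libraries, and 13 were compared. In 6 of the 13 the groups did not overlap, and for the levels of single miRNAs this held in 290 of 863 (33.6%). With 2 libraries a group, an exact permutation test cannot give a p under 0.333, so no ratio could pass it. The lowest p of this test was at that limit, and 0.722 after Benjamini-Hochberg adjustment over the 13. The ratios share members and libraries and are not independent of each other.

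Among the largest differences was the one in the ratio between the passengers of the miR-125b hairpins. This ratio was added after the other ratios had been listed. How far passenger counts follow the output of their hairpins was not tested. The ratio of hsa-miR-125b-1-3p to hsa-miR-125b-2-3p was 2.29 and 2.04 in exposed and 1.14 and 1.71 in unexposed cells. In log2 the means were 1.11 ± 0.12 and 0.48 ± 0.41 (SD, n = 2 each), a difference of 0.63, and both exposed values were higher. The difference was 0.34 without unexposed replicate 1 and 0.92 without unexposed replicate 2. The chromosome 11 passenger thus made up 69.6% and 67.1% of the miR-125b passenger counts in exposed and 53.3% and 63.0% in unexposed cells. The 95% Wilson intervals were at most 1.24 percentage points wide. The ratio of hsa-miR-100-5p to hsa-miR-125b-1-3p, both from chromosome 11, was 8.50 and 9.20 in exposed and 17.0 and 11.2 in unexposed cells, lower in every exposed library by 0.64 in log2, a difference of -0.34 without unexposed replicate 1. Since hsa-miR-100-5p and hsa-miR-125b-2-3p were both steady, these ratios restate the level of hsa-miR-125b-1-3p. hsa-miR-125b-5p, the guide made from both hairpins, outnumbered the summed passengers by 10.5 and 11.1 times in exposed and 16.2 and 7.22 times in unexposed cells, and the unexposed values lay on either side of the exposed ones.

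Guides of 1 family were also compared with each other. hsa-miR-99a-5p over hsa-miR-100-5p was 2.69 and 2.23 in exposed and 2.03 and 1.96 in unexposed cells, a log2 difference of 0.30 with no overlap that was 0.16 without exposed replicate 1. hsa-miR-99a-5p over hsa-miR-99b-5p was 3.14 and 2.23 in exposed and 2.35 and 1.63 in unexposed cells, and these overlapped. hsa-miR-125b-5p over hsa-miR-125a-5p was 2.40 and 1.69 in exposed and 1.56 and 1.49 in unexposed cells, a log2 difference of 0.40 with no overlap that was 0.15 without exposed replicate 1 and 0.66 without exposed replicate 2. In each of these 3 ratios exposed replicate 1 was the highest library, and exposed replicate 2 lay nearer to unexposed replicate 1 than to exposed replicate 1.

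As shares, hsa-miR-99a-5p made up 59.2% and 52.7% of the miR-99/100 guide counts in exposed and 52.1% and 47.1% in unexposed cells. hsa-miR-100-5p made up 22.0% and 23.7% in exposed and 25.7% and 24.1% in unexposed cells, and hsa-miR-99b-5p the rest. hsa-miR-125b-5p made up 70.6% and 62.8% of the miR-125 guide counts in exposed and 60.9% and 59.8% in unexposed cells. Shares within a family sum to the whole, so a higher share of one member is a lower share of another. Counting error was small beside these steps, with 95% Wilson intervals at most 0.303 percentage points wide.

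**Figure D3:**
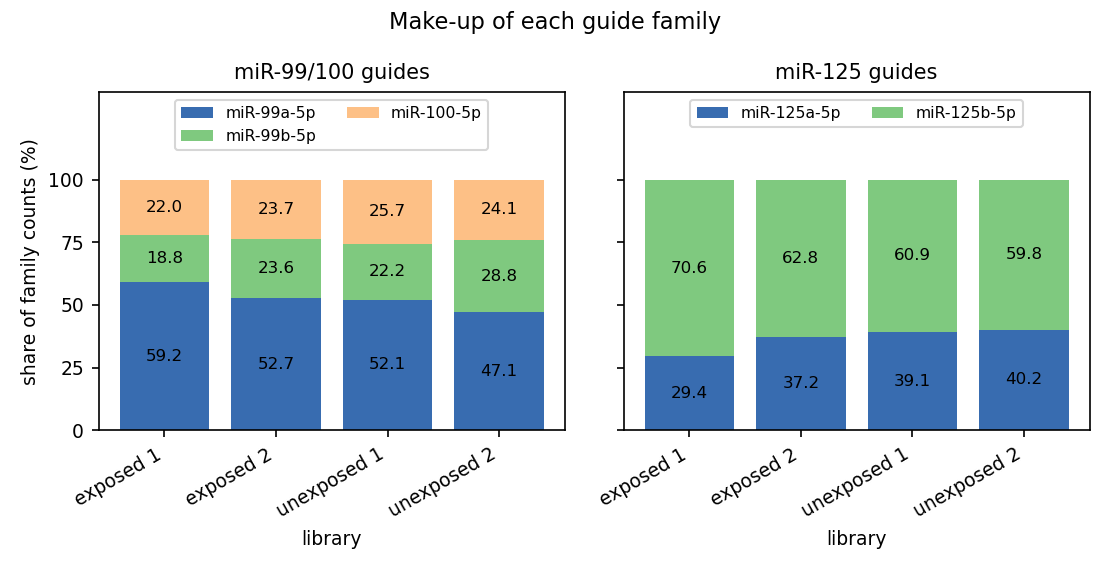
Share of guide counts (%) in each library, for the miR-99/100 guides (left) and the miR-125 guides (right); each stacked bar is 1 library. hsa-miR-99a-5p holds between 47.1% and 59.2% of its family and hsa-miR-125b-5p between 59.8% and 70.6% of its own, both with the highest share in exposed replicate 1.

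The chromosome 19 locus could be compared guide by guide, since its 3 guides each come from 1 hairpin within 728 bases. hsa-miR-99b-5p over hsa-let-7e-5p was 2.33 and 2.50 in exposed and 2.76 and 3.72 in unexposed cells, lower in both exposed libraries by 0.41 in log2, a difference of -0.19 without unexposed replicate 2 and -0.62 without unexposed replicate 1. hsa-miR-99b-5p over hsa-miR-125a-5p was 1.16 and 0.940 in exposed and 0.749 and 1.75 in unexposed cells. For this pair the unexposed replicates lay farther apart than the group means did. hsa-let-7e-5p over hsa-miR-125a-5p was 0.496 and 0.376 in exposed and 0.272 and 0.470 in unexposed cells. On chromosome 21, hsa-miR-99a-5p over hsa-let-7c-5p was 3.64 and 2.09 in exposed and 2.03 and 2.72 in unexposed cells, and the groups overlapped.

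The members differed widely in how strongly the guide outnumbered its passenger. hsa-miR-99b-5p exceeded hsa-miR-99b-3p by 21.4 and 22.8 times in exposed and 23.8 and 23.6 times in unexposed cells. This was the steadiest of the 13 ratios, and at -0.10 the log2 difference between groups was small although they did not overlap. hsa-miR-99a-5p exceeded hsa-miR-99a-3p by 21180 and 18730 times in exposed and 12600 and 25610 times in unexposed cells. The hairpins of miR-99a and miR-99b give guides with the same seed and passengers with the same seed, yet the arm ratio of miR-99a was between 530 and 1088 times that of miR-99b within a library. For miR-100 the passenger had 3, 1, 5 and 2 counts against 1342235 guide counts in all, a ratio of 122000 with a 95% Poisson interval of 68200 to 244400 that covers counting error only. hsa-miR-125a-5p exceeded its passenger by 163 and 228 times in exposed and 370 and 179 times in unexposed cells, between 15.5 and 24.8 times the ratio of miR-125b in the same library.

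**Figure D4:**
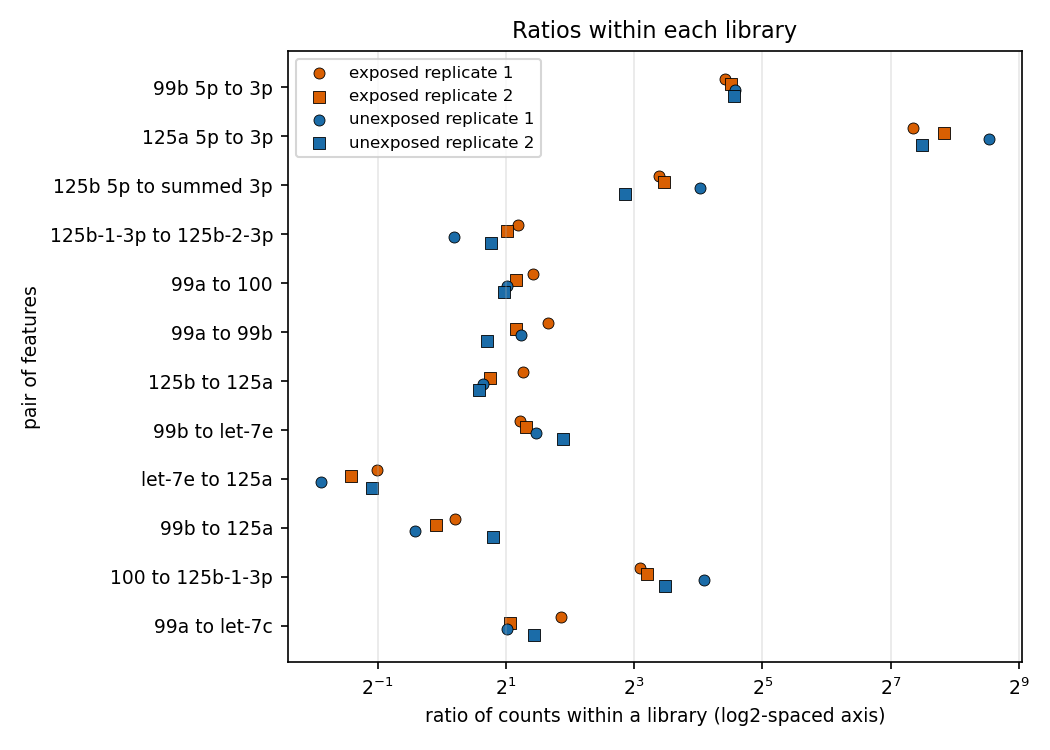
Ratio of counts of paired miRNAs within each library (log2-spaced axis) for 12 of the 13 ratios, leaving out the very high miR-99a guide to passenger ratio; points are libraries, in orange for exposed and blue for unexposed. The ratio of hsa-miR-99b-5p to its passenger stays between 21.4 and 23.8, whereas unexposed replicates lie far apart in the ratios with hsa-miR-125a-5p to its passenger (179 and 370) and hsa-miR-125b-5p to its passengers (7.22 and 16.2).

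Of the 7 other products of these loci, 6 were tested and 0 had a P under 0.05, with 3 log2 fold changes above 0 and 3 below, from -0.05 to 0.28. hsa-let-7e-5p was at 7000 and 6624 CPM in exposed and at 5937 and 5898 CPM in unexposed cells. It was higher in both exposed libraries, with a log2 fold change of 0.20 (SE 0.22, adjusted p = 0.940 in edgeR's quasi-likelihood test). hsa-let-7a-5p and hsa-let-7c-5p had log2 fold changes of -0.05 and -0.02. These let-7 guides also differ by single bases, hsa-let-7a-5p from hsa-let-7c-5p by A19G and from hsa-let-7e-5p by U9G. Sequence relatives of the miR-99/100 guides were counted too. hsa-miR-10b-5p had a log2 fold change of -0.01, and hsa-miR-10a-5p, at 49 and 68 counts in exposed and 29 and 587 counts in unexposed cells, had -3.34 (adjusted p = 0.922 in edgeR's quasi-likelihood test), which was -0.09 without unexposed replicate 2, its only high library. Of the 6 let-7 family guides made elsewhere, 0 had a P under 0.05, with 1 log2 fold change above 0 and 5 below, from -0.40 to 0.11.

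The miRNAs whose profile over the 4 libraries lay nearest to a guide were sought among 218 with a mean count of at least 1000, by the root mean square difference of centred log2 CPM. hsa-miR-100-5p was nearest to another member, hsa-miR-125b-2-3p, at 0.0212, where the median of all candidates was 0.229. hsa-miR-99a-5p was nearest to hsa-miR-3615 (0.0239) and hsa-miR-766-3p (0.0614), and hsa-miR-99b-5p to hsa-miR-296-3p (0.0424) and hsa-miR-135a-2-3p (0.0523). hsa-miR-125b-5p was nearest to hsa-miR-138-5p (0.0838) and hsa-miR-1271-5p (0.0875), and hsa-miR-125a-5p to hsa-miR-107 (0.0566) and hsa-miR-708-5p (0.0629). With 4 libraries such likeness describes these libraries only.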

How the data were processed

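The authors made small RNA libraries from total RNA with a NEBNext kit, processed the reads with CAP-miRseq, which trims, aligns and counts reads on each mature miRNA, and deposited 1 table of raw counts, not normalized. The submitters' processing notes name the build hg19. The pipeline's version, the annotation release and the sharing of multi-mapping reads are not given in the sources used here. Samples were grouped by their titles.

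From the counts, edgeR 4.0.16 (R 4.3.3) kept miRNAs by filterByExpr (minimum count 10, minimum total 15), scaled by TMM and fitted its quasi-likelihood test for exposure over all 863 miRNAs, without covariates and with Benjamini-Hochberg adjustment. Standard errors came from the F statistic and 95% intervals from its degrees of freedom. Ratios were taken on the counts within a library and compared by a two-sided exact permutation test (SciPy 1.17.1). The fit was tested on simulated counts. The alternatives tried were DESeq2 1.42.0, limma-voom (limma 3.58.1), other scalings and filters, 0.5 added to counts before ratios, a replicate block, summing hsa-miR-99a-5p and hsa-miR-100-5p, and leaving out each library.

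Depth was between 12100425 and 24858230 counts, without molecular identifiers, so intervals on counts and the floor of 3 counts cover counting error only. The members, partners, marker lists and the 2 nearest profiles of each of the 5 most abundant members were named by rule, with earlier results of these data known. The ratio of the miR-125b passengers was added after the other ratios had been listed.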

Additional observations from a re-analysis of the deposited data

How the results depend on the processing

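Of 142 values of the members under the alternatives, 118 kept their direction and their side of an unadjusted P of 0.05, 20 turned direction and 4 passed the threshold, and no adjusted p fell below 0.143. With 1 library left out, 6 of the 13 ratios turned direction, such as hsa-miR-125b-5p to its summed passengers (-0.59 to 0.58). All 6 had overlapping groups, since a ratio without overlap cannot turn when 1 library is dropped. The number of members past a P of 0.05, 0 in the main comparison, was 1 without a filter on low counts (at least 1 count in any library: hsa-miR-125b-1-3p, 0.57, adjusted p = 0.792 in edgeR's quasi-likelihood test, where 94 of 1825 miRNAs, or 5.15%, passed) and between 0 and 1 with 1 library left out, where the lone library of a group is assumed to vary like the other group and the spread is the one shared by all miRNAs. These fits gave log2 fold changes of -0.0087 to 0.47 for hsa-miR-99a-5p, -0.42 to -0.03 for hsa-miR-99b-5p, -0.17 to 0.0362 for hsa-miR-100-5p, -0.50 to 0.33 for hsa-miR-125a-5p, -0.13 to 0.76 for hsa-miR-125b-5p, -0.51 to 0.64 for hsa-miR-99a-3p, -0.33 to 0.0751 for hsa-miR-99b-3p, and -0.13 to 0.0223 for hsa-miR-125b-2-3p. Scaling by library size only turned the direction of hsa-miR-100-5p (0.0908), hsa-miR-125a-5p (0.0628), hsa-miR-99a-3p (0.19), hsa-miR-99b-3p (0.0032) and hsa-miR-125b-2-3p (0.10). Summing hsa-miR-99a-5p with hsa-miR-100-5p gave 0.14 for the pair. This value is among the 142 under both names, and among the 20 turns for hsa-miR-100-5p, although it belongs to the pair. hsa-miR-99a-3p, with few counts, also turned with limma-voom (0.0751), at least 1 count in any library (0.0065), at least 10 counts in every library (0.0162) and both blocks below. The cause of these turns was not tested. The weight of a miRNA's own spread in the fit with at least 1 count in any library was not examined either.

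With the replicate block the number of members past a P of 0.05 stayed 0 and hsa-miR-99a-3p stood at 0.0491. The labels do not say whether cultures with equal numbers were handled together. Over 863 miRNAs the deviations of libraries with equal numbers correlated at -0.186, a value from these same libraries that cannot decide it. In a crossed replicate block, chosen after seeing the data, 1 member passed (hsa-miR-125b-1-3p), against 59 of 863 miRNAs (6.84%), and hsa-miR-99a-3p stood at 0.031. For abundant members counting error is far below the spread between libraries, so the number of libraries limits what can be seen. Cultures and library preparation cannot be told apart as sources of this spread.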
